A study of Mus musculus with 18 samples.

Results

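Dppa5a, Dppa3, Dnmt3l, Fbxo15, Morc1 and Tcea3 are 6 mouse genes that have been linked to undifferentiated ES cells. All but Tcea3 were also on the list of germ cell genes used below. Their clones were followed on cDNA arrays of IMT11 ES cells and of embryoid bodies (EBs), the floating aggregates in which ES cells start to differentiate. A clone was taken where its only gene symbol in the probe annotation was 1 of the 6, which gave 9 of 15360 clones, and 9866 of all clones carried 1 symbol. Dppa5a, Dppa3, Dnmt3l and Tcea3 had 1 clone each, Morc1 had 2 and Fbxo15 had 3.

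IMT11 is a mouse ES cell line, kept here on gelatin without feeder cells, in medium that contained serum and LIF, the cytokine that holds mouse ES cells undifferentiated. The 9 conditions were undifferentiated ES cells (D0) and EBs made from 1000 cells in hanging drops and taken at Days 1, 2, 3 and 4, grown in medium lacking LIF (named D1-LIF for Day 1, and so on to D4-LIF) or in medium that contained it (D1+LIF to D4+LIF). All groups were of this 1 line, and the D0 cells had been grown with LIF. Each sample was hybridised against a pooled control on 2 arrays, with the sample in Cy3 on 1 array and in Cy5 on the other, which made 18 arrays. The pool is given as EBs of Days 1 to 4 in the labels and as all samples in the methods, so whether it held D0 RNA is unclear.

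Dppa5a (also called Esg1) encodes an RNA-binding KH domain protein that marks pluripotent cells and germ cells. Dppa3 (Stella) protects the maternal genome against demethylation and marks primordial germ cells, and Dnmt3l is the partner without catalytic activity that helps the de novo DNA methyltransferases in germ cells. Fbxo15 is an F-box protein, the subunit that brings substrates to SCF ubiquitin ligases, and a known target of Oct4 and Sox2 in ES cells. Morc1 is an ATPase needed for male meiosis and for silencing of transposons, and Tcea3 is a tissue-restricted form of TFIIS, the factor that restarts stalled RNA polymerase II. Near-identical copies of Dppa5a, Dppa3 and Dnmt3l exist in the mouse genome (Dppa5b, Dppa5c, Dppa3-ps and Dnmt3l-ps1), and a cDNA probe cannot tell such copies apart.

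Promoter windows were at hand for 2 of the 6 genes, taken from RefSeq (GRCm38.p6) as 250 bases before to 50 after a start. Their part in the members' values was not tested. They are shown as background, with the CG dinucleotides on which the DNA methylation machinery acts marked in capitals. The first is Tcea3 at chr4:136247707-136248006 on the plus strand, and the other is the middle of 3 listed starts of Dnmt3l, at chr10:78049592-78049891 on the plus strand.
Tcea3: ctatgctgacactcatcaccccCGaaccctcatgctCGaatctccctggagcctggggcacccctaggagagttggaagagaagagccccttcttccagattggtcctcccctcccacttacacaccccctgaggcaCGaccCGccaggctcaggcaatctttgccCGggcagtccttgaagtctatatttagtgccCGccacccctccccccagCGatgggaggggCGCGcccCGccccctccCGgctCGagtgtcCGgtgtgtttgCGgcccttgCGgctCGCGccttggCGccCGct
Dnmt3l: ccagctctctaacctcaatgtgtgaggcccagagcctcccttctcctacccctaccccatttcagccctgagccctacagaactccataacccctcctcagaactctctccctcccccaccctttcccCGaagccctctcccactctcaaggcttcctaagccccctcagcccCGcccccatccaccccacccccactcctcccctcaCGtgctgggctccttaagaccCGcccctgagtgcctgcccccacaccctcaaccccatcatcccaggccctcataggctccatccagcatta

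The Tcea3 window held 19 CG dinucleotides, a number reached by 28.1% of the 32851 windows of this length, and the Dnmt3l window held 4, a number reached by 68.6%. The other 2 Dnmt3l starts held 6 and 3. The E-box CACGTG, searched on both strands, occurred 1 time in the printed Dnmt3l window, not in the Tcea3 window nor at the other Dnmt3l starts, and in 7.15% of all windows. The letters TCCCGC, a form bound by E2F factors and searched on both strands, were in none of the 4 windows and in 20.0% of all. These matches describe the letters alone, and the arrays did not measure binding or methylation.

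The values are log2 ratios to the pool, averaged over the 2 spots of a clone, with each array centred on its median. Ratios were read as sample over pool, which is likely since the labels name the sample as the first channel, but no source states it. If every array ran as pool over sample, all signs below would turn. If the Cy3 arrays alone did, as with a ratio of fixed dye order, only their signs would turn. That reading is the setting named below as the Cy3 sign turned. Arrays of different conditions correlated across clones at a mean of 0.36 in Cy3 and 0.74 in Cy5. The 2 arrays of a condition correlated at a mean of -0.10, near the -0.13 of arrays of different conditions in opposite dyes. Values followed the dye more closely than the condition, and each dye is given apart. The D0 array in Cy3 stood apart, with a median of -2.73 on slide 1 and -0.31 on slide 2 before centring, against medians between -1.31 and 1.57 on the slides of the other 17 arrays. Its standard deviation (SD) over the tested clones was 0.99, against 0.20 to 0.40 on the other Cy3 arrays. The widest array of all was D4+LIF in Cy5, with an SD of 1.455. The part of these spreads in the members' values was not tested. The 2 D0 arrays are shared by every comparison with D0, so those comparisons are not independent of each other. The labels state 2 biological sets but not which array came from which, so that set and dye cannot be told apart. The fit holds a dye term. Its p-values therefore measure the spread left between the 2 arrays of a condition after the mean dye difference is removed, taken over all 9 conditions.

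The limma fit covered the 8740 clones measured on all 18 arrays, 7679 of them on slide 2. Of the members, 7 clones on slide 2 passed this filter. The Fbxo15 clone BG069468 and the Morc1 clone BG068430, both on slide 1, had no value on the Cy5 arrays of D1+LIF and D2-LIF and are described by their values.

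**Figure D1:**
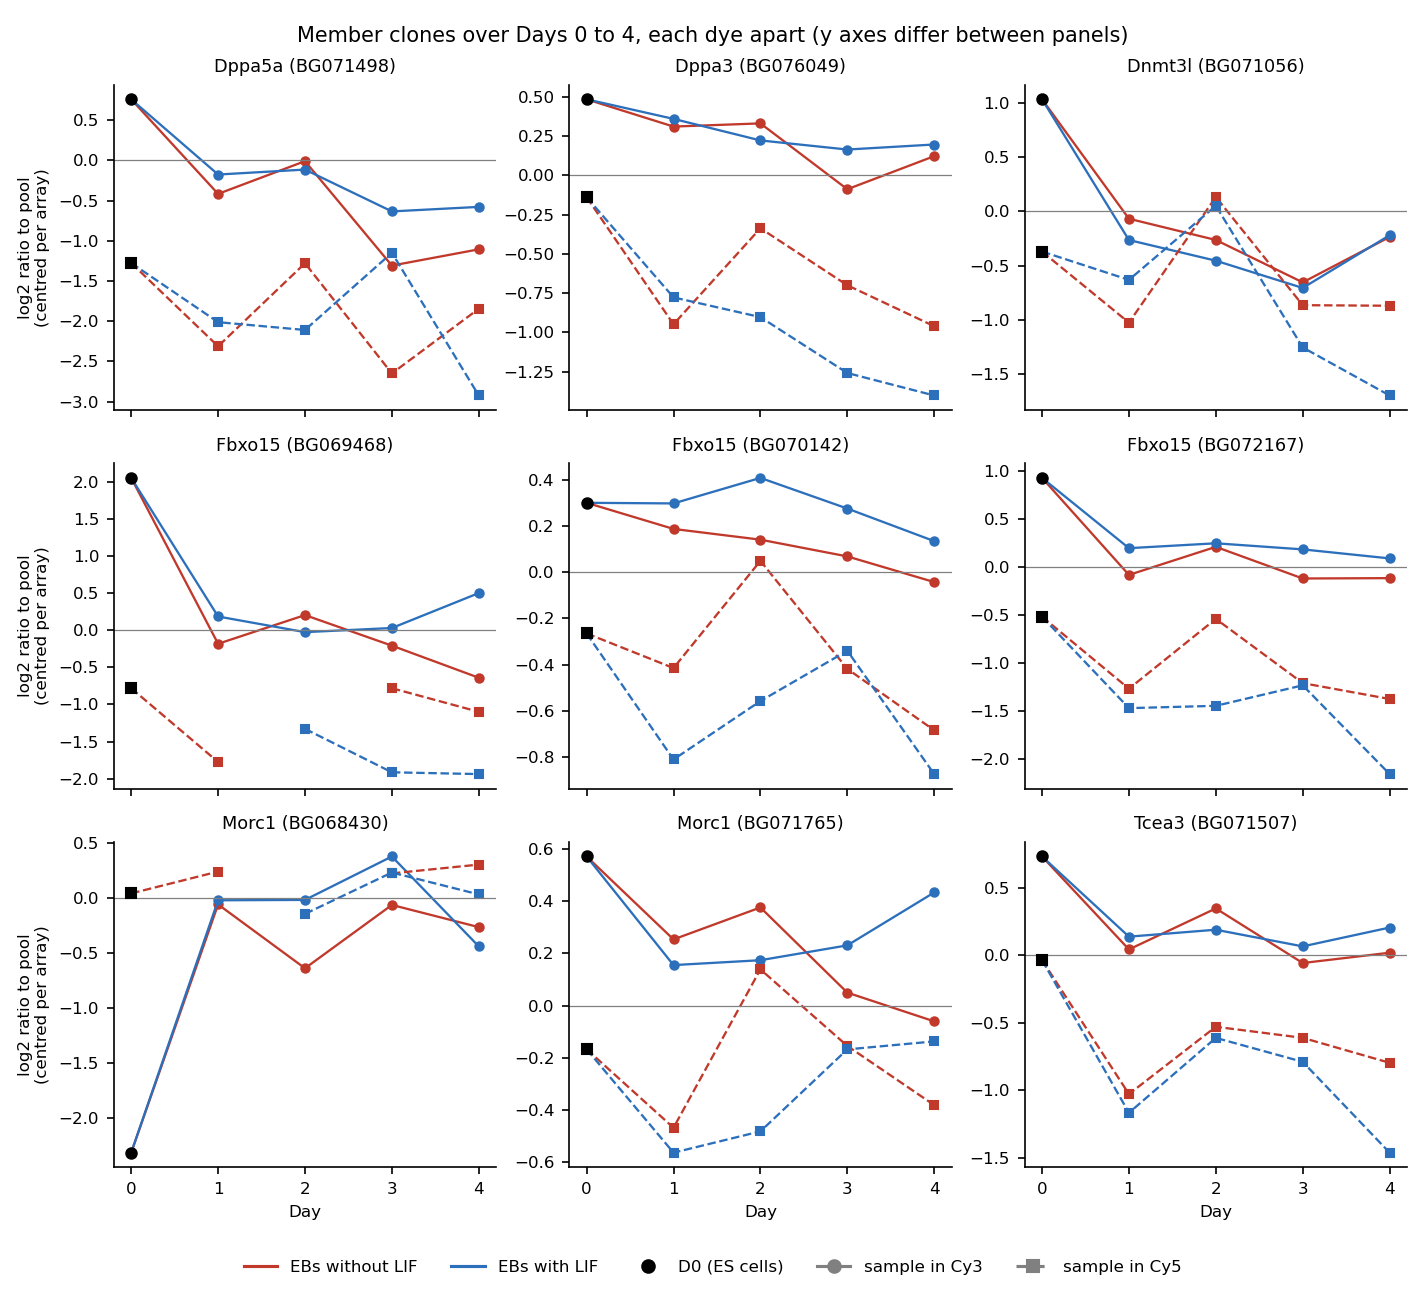
Log2 ratio to the pool (centred on each array's median, y axis, scaled for each panel) against day for the 9 clones, with EBs without LIF in red and with LIF in blue, the sample in Cy3 as circles and solid lines and in Cy5 as squares and dashed lines, and D0 in black. For 6 of the 7 tested clones the D0 array in Cy3 lay above all 8 EB arrays in Cy3, the exception being Fbxo15 BG070142. The same held for 48.6% of all tested clones. For 3 of the 7, D0 lay highest in both dyes, as for 9.43% of all tested clones. Morc1 BG068430 on slide 1, centred over both slides, had its lowest value in the D0 array in Cy3.

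Dppa5a, the pluripotency-associated KH domain gene, was measured by the clone BG071498 and lay lower in EBs than in D0 on 15 of the 16 EB arrays. On the Cy3 arrays its log2 ratio was 0.76 in D0, -0.42, -0.01, -1.31 and -1.11 in D1-LIF to D4-LIF, and -0.18, -0.11, -0.63 and -0.58 in D1+LIF to D4+LIF. On the Cy5 arrays it was -1.28 in D0, -2.31, -1.28, -2.65 and -1.84 in D1-LIF to D4-LIF, and -2.01, -2.11, -1.15 and -2.92 in D1+LIF to D4+LIF. D0 was the highest array in Cy3, as for 48.6% of all tested clones, and in Cy5 the D3+LIF array alone exceeded it. Set against the median of slide 2 itself, the D2-LIF array in Cy5 exceeded D0 too, by 0.052. The lowest array was D3-LIF in Cy3 and D4+LIF in Cy5.

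In the limma fit Dppa5a fell by 1.72 on the log2 scale from D0 to D3-LIF (SE 0.41, adjusted p = 0.0411 by Benjamini-Hochberg), or -1.52 relative to the median of all tested clones. In that comparison 322 clones, 3.68% of those tested, were called lower and 0 higher. The other 7 differences of Dppa5a from D0 were all below 0 and ran from -1.49 in D4+LIF (adjusted p = 0.0643) to -0.39 in D2-LIF, with none past the threshold of 0.05. Ordered by condition mean, Dppa5a stood highest in D0 at -0.26, followed by D2-LIF at -0.64, D3+LIF at -0.89, D1+LIF at -1.09, D2+LIF at -1.11, D1-LIF at -1.36, D4-LIF at -1.48, D4+LIF at -1.75 and D3-LIF at -1.98. No neighbours in this order differed by more than 0.39, which is within the SE of 0.41 of a difference.

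The call for D3-LIF did not hold under most other settings. The difference was -1.53 (adjusted p = 0.261) with slide 2 alone and centred on its own median, -1.24 (adjusted p = 0.257) with arrays not centred, -1.72 (adjusted p = 0.995) without the dye term as replicate block, and 0.35 (adjusted p = 1.00) with the Cy3 sign turned. Leaving out 1 of the 18 arrays gave differences from -1.99 to -1.45 and ended the call for 9 arrays, with adjusted p = 0.320 without the D0 array in Cy3, 0.422 and 0.104 without the D3-LIF array in Cy3 and in Cy5, and 0.0528 to 0.0589 without either array of D1+LIF, D1-LIF or D2+LIF.

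Before centring, all 4 spots of Dppa5a lay at least 2-fold below the pool in D3-LIF, at ratios of 0.417 and 0.426 in Cy3 and 0.225 and 0.247 in Cy5. They did so again in D4-LIF, at 0.405 and 0.432 in Cy3 and 0.371 and 0.448 in Cy5. This held for 0.384% of the 15360 clones in D3-LIF, for 0.0195%, or 3 clones, in D4-LIF, and for 0.521% in at least 1 condition, while no other member clone met it anywhere. In D0 the spots were at 1.01 and 1.29 in Cy3 but at 0.517 and 0.461 in Cy5. The 2 dyes therefore placed Dppa5a in D0 on opposite sides of the pool, as the plot of its spots shows.

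**Figure D2:**
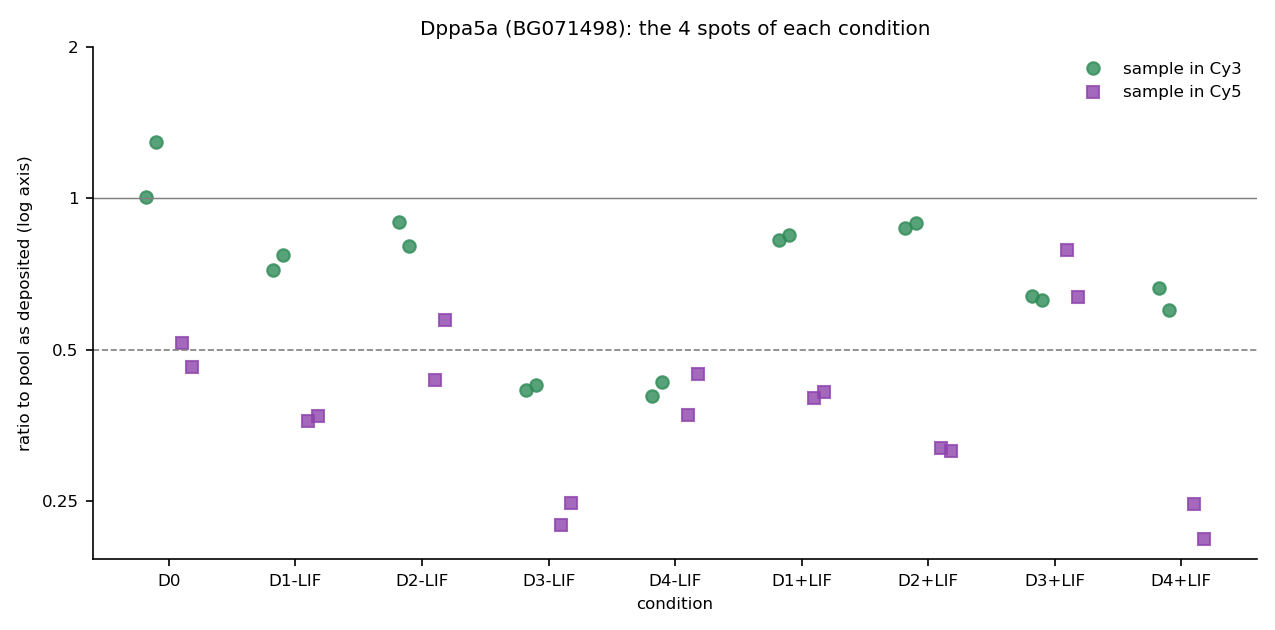
Ratio of Dppa5a to the pool as deposited (y axis, log scale) in the 4 spots of each of the 9 conditions (x axis), with the sample in Cy3 as green circles and in Cy5 as purple squares, a solid line at 1 and a dashed line at 0.5. All 4 spots lay below 0.5 in D3-LIF (0.225 to 0.426) and D4-LIF (0.371 to 0.448) and in no other condition.

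With and without LIF, Dppa5a did not order the same way on each day. In D1 the EBs without LIF were lower by -0.24 in Cy3 and -0.30 in Cy5, and in D3 by -0.67 and -1.50. In D2 they were higher, by 0.10 and 0.83, and in D4 the dyes disagreed, at -0.53 in Cy3 and 1.08 in Cy5. These daily differences were not tested. The mean over Days 1 to 4 without LIF minus with LIF was -0.15 (SE 0.20, adjusted p = 0.648), against a median of -0.18 over all tested clones. It was -0.75 at equal spread (adjusted p = 0.347), and leaving out 1 array moved it between -0.30 without the D3+LIF array in Cy3 and -0.0078 without that in Cy5.

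Dppa3, the germ cell marker Stella, was measured by BG076049 and was below D0 on all 16 EB arrays. The same held for 9.43% of all tested clones. On the Cy3 arrays the log2 ratio was 0.48 in D0, 0.31, 0.33, -0.09 and 0.12 in D1-LIF to D4-LIF, and 0.36, 0.22, 0.16 and 0.20 in D1+LIF to D4+LIF. On the Cy5 arrays it was -0.14 in D0, -0.95, -0.34, -0.70 and -0.96 in D1-LIF to D4-LIF, and -0.78, -0.90, -1.26 and -1.40 in D1+LIF to D4+LIF. With LIF the Cy5 values were lower at each later day, while in Cy3 they stayed between 0.16 and 0.36. Set against the median of slide 2 itself, the Cy3 arrays of Days 1 and 2 lay above D0. They did so by 0.078 in D1-LIF, 0.021 in D2-LIF, 0.12 in D1+LIF and 0.0036 in D2+LIF. The differences from D0 ran from -0.77 in D4+LIF (SE 0.28, adjusted p = 0.124) to -0.18 in D2-LIF, and 0 of 8 passed the test.

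Dnmt3l, the cofactor of the de novo methyltransferases, was measured by BG071056. On the Cy3 arrays it was at 1.03 in D0, at -0.07, -0.26, -0.65 and -0.24 in D1-LIF to D4-LIF, and at -0.26, -0.45, -0.70 and -0.22 in D1+LIF to D4+LIF. On the Cy5 arrays it was at -0.37 in D0, at -1.02, 0.13, -0.86 and -0.87 in D1-LIF to D4-LIF, and at -0.63, 0.05, -1.25 and -1.69 in D1+LIF to D4+LIF. Every EB array in Cy3 was below D0, as for 48.6% of all tested clones, and in Cy5 both Day 2 arrays were above it. Set against the median of slide 2 itself, the D2+LIF array in Cy5 was below D0, with a difference of -0.13. The 2 spots of this clone differed by up to 2.02 on the log2 scale, on the D2+LIF array in Cy5, and by 1.36 on the D0 array in Cy3, more than for any other member clone tested. The largest difference from D0 was -1.31 in D3+LIF (SE 0.45, adjusted p = 0.178), and 0 of 8 passed.

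Fbxo15, the F-box gene expressed in ES cells, had 3 clones that did not share 1 pattern. BG072167 was below D0 on all 16 EB arrays, as were 9.43% of all tested clones. In Cy3 it was at 0.92 in D0, at -0.08, 0.21, -0.12 and -0.12 in D1-LIF to D4-LIF, and at 0.19, 0.25, 0.18 and 0.09 in D1+LIF to D4+LIF. In Cy5 it was at -0.52 in D0, at -1.26, -0.54, -1.21 and -1.37 in D1-LIF to D4-LIF, and at -1.47, -1.44, -1.23 and -2.15 in D1+LIF to D4+LIF. The D4+LIF array in Cy5 was the lowest of all, and D2-LIF in Cy5 came within 0.02 of D0. Set against the median of slide 2 itself, D2-LIF in Cy5 lay above D0, by 0.033.

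BG072167 fell by 1.24 on the log2 scale from D0 to D4+LIF (SE 0.31, adjusted p = 0.0445 in the limma fit), or -1.49 relative to the median of all clones, where 4.32% of clones were called lower. Its other differences ran from -0.95 in D4-LIF to -0.37 in D2-LIF, with none past the threshold. The call for D4+LIF was kept with slide 2 alone (-1.49, adjusted p = 0.0443) and with clones whose spots lay within 1 of each other (adjusted p = 0.0314). It was lost with arrays not centred (-0.72, adjusted p = 0.0578), after scaling to equal spread (-0.05, adjusted p = 1.00) or quantile normalization (-0.40), without the dye term as replicate block (adjusted p = 0.564) and with the Cy3 sign turned (-0.40, adjusted p = 0.595). At gene level, with the 2 tested Fbxo15 clones averaged, the difference was -0.81 (SE 0.27, adjusted p = 0.113). Leaving out 1 array ended it in 15 of 18 cases, with a value of -0.77 (adjusted p = 0.499) without the D4+LIF array in Cy5 and -1.70 (adjusted p = 0.00220) without the one in Cy3, adjusted p = 0.212 and 0.0919 without the D0 array in Cy3 and in Cy5, and 0.0520 to 0.0731 without any one array of Day 1, of Day 3, of D2+LIF or of D4-LIF.

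The clone BG070142 of Fbxo15 stayed near D0. In Cy3 it was at 0.30 in D0 and between -0.04 and 0.41 in EBs, and in Cy5 at -0.26 in D0 and between -0.87 and 0.05 in EBs. Its differences from D0 ran from -0.39 in D4+LIF to 0.08 in D2-LIF, none past the threshold. Its values overlapped D0 in both dyes, through D2+LIF in Cy3 and D2-LIF in Cy5.

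The slide 1 clone BG069468 of Fbxo15 was at 2.06 in D0 and between -0.64 and 0.50 in EBs on the Cy3 arrays. On the Cy5 arrays it was at -0.78 in D0 and between -1.94 and -0.78 on the 6 EB arrays that gave a value, with D3-LIF level with D0. Relative to the median of slide 1, its D0 value in Cy3 was 4.21, where the slide median was -2.73, and its differences from D0 were then -4.64 to -3.49 in Cy3 and -1.20 to -0.12 in Cy5. When clones were fitted that had a value for every condition on 1 array or more, its differences from D0 ran from -1.62 in D1-LIF (SE 0.58, adjusted p = 0.194) to -1.13 in D3-LIF, and none passed.

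Morc1, the meiotic ATPase gene, had 2 clones, and the place of the clone on slide 1 relative to D0 depended on the centring. BG071765 on slide 2 was at 0.57 in D0 and between -0.06 and 0.43 in EBs in Cy3, and at -0.17 in D0 and between -0.56 and 0.14 in EBs in Cy5. All 8 EB arrays in Cy3 were below D0, as for 48.6% of all tested clones, and 5 of 8 in Cy5 were. Set against the median of slide 2 itself, the D4+LIF array in Cy3 was above D0, by 0.075. Its differences from D0 ran from -0.42 in D4-LIF (SE 0.22, adjusted p = 0.709) to 0.06 in D2-LIF, with none past the threshold.

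BG068430 of Morc1 on slide 1 was at -2.31 in D0 and between -0.64 and 0.38 in EBs in Cy3, so that all 8 EB arrays were above D0 with arrays centred over both slides. In Cy5 it was at 0.04 in D0 and between -0.14 and 0.30 on 6 EB arrays, of which 2 were below D0. Set against the median of slide 1 itself, the D0 value in Cy3 was -0.15, at percentile 47.3 of that slide, and the EB values in Cy3, between -0.38 and 0.40, lay on both sides of it. In the same fit of clones with incomplete values, its differences from D0 ran from 0.76 in D2-LIF to 1.44 in D3+LIF (SE 0.55, adjusted p = 0.258), and none passed. Against the median of slide 1 the differences, averaged over the dyes with a value, were smaller and ran from -0.23 in D2-LIF, where Cy3 alone gave a value, to 0.39 in D3+LIF.

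Tcea3, the TFIIS form whose promoter window is printed above, was measured by BG071507 and was below D0 on all 16 EB arrays. The same held for 9.43% of all tested clones. Tcea3 was also below D0 on all 16 against the median of slide 2 itself, as were 7.41% of that slide's tested clones. In Cy3 it was at 0.73 in D0, at 0.04, 0.35, -0.06 and 0.02 in D1-LIF to D4-LIF, and at 0.14, 0.19, 0.07 and 0.21 in D1+LIF to D4+LIF. In Cy5 it was at -0.03 in D0, at -1.03, -0.53, -0.61 and -0.80 in D1-LIF to D4-LIF, and at -1.17, -0.61, -0.79 and -1.46 in D1+LIF to D4+LIF. At Day 1 it lay below D0 in both media and both dyes. The differences from D0 were -0.84 in D1-LIF (SE 0.27, adjusted p = 0.0922), -0.86 in D1+LIF (adjusted p = 0.143) and -0.98 in D4+LIF (adjusted p = 0.0635), and 0 of 8 passed.

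Over the 7 tested clones, 54 of 56 differences from D0 were below 0, as were 62.1% of the differences of all tested clones, from 35.2% in D4+LIF to 76.1% in D3-LIF. The test was passed by 2 of the 56, both lower, and over all clones 2.12% were called lower. The medians of the 7 were -0.84, -0.37, -0.68 and -0.74 in D1-LIF to D4-LIF and -0.78, -0.53, -0.71 and -0.98 in D1+LIF to D4+LIF. Over all tested clones the medians were -0.21, -0.11, -0.20 and -0.12 without LIF and -0.19, 0.14, -0.08 and 0.25 with LIF. Without adjustment 22 of the 56 had p under 0.05, all of them lower, beside 14.1% of the differences of all clones in either direction and 11.7% lower. The share of all clones called lower was 5.65% in D1-LIF, 0.0114% in D2-LIF, 0% in D4-LIF, 0.0114% in D1+LIF, 0% in D2+LIF and 3.3% in D3+LIF, beside the 3.68% and 4.32% given above for D3-LIF and D4+LIF, and 1 of 7 member clones was called in each of the last 2 and 0 of 7 in the other 6. Where limma called 0 clones, 699 in D4-LIF and 1047 in D2+LIF had an unadjusted p under 0.05. Members and all clones were centred alike, and 24.1% of all tested clones were below D0 in all 8 comparisons, as were 5 of the 7 members.

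**Figure D3:**
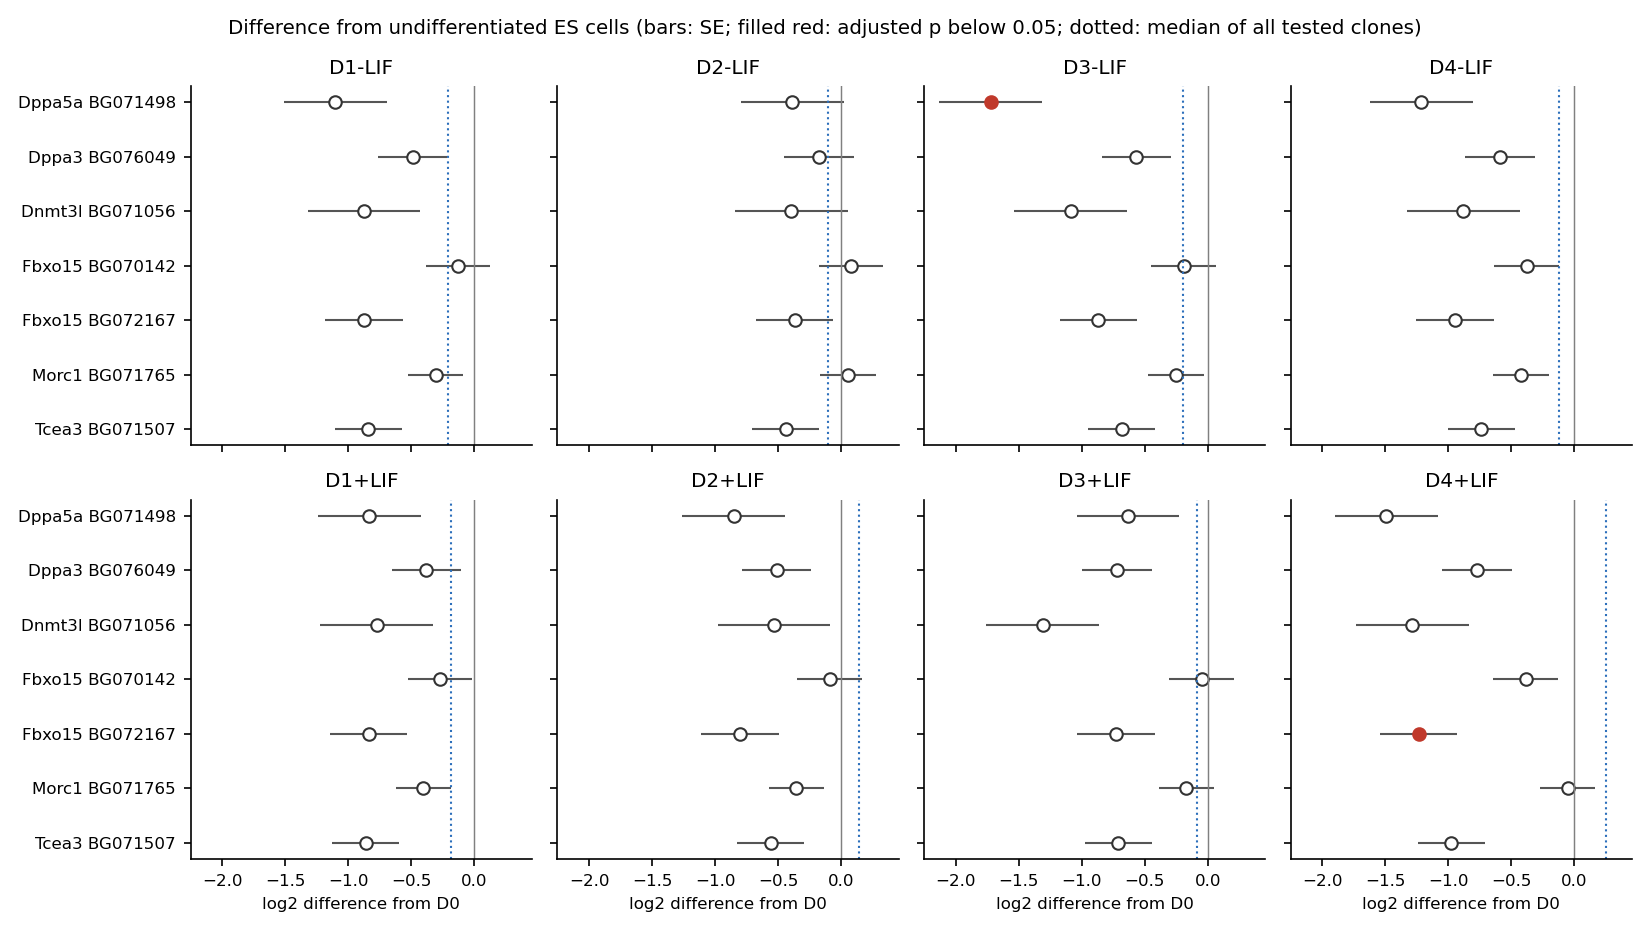
Difference from D0 in log2 (x axis) for the 7 tested clones (y axis) in each of the 8 EB conditions, as points with bars of 1 SE from the limma fit, filled in red where the adjusted p was below 0.05, with the median of all tested clones as a dotted line. Only Dppa5a in D3-LIF (-1.72) and Fbxo15 BG072167 in D4+LIF (-1.24) were filled, and 54 of the 56 points lay below 0.

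The part of the D0 array in Cy3 in these counts was not tested. That array lay above all 8 EB arrays in Cy3 for 48.6% of all tested clones and for 6 of the 7 members, the D0 array in Cy5 for 13.4% and for 3 of 7, and both did for 9.43% and for the same 3 (Dppa3, Fbxo15 BG072167 and Tcea3). With slide 2 centred on its own median, the share in Cy3 was 29.1%, with 4 of 7 members (Dppa5a, Dnmt3l, Fbxo15 BG072167 and Tcea3), and the share in both dyes was 7.41%, with Tcea3 alone among the members. In that setting 51 of the 56 differences were below 0, beside 49.6% of those of all clones of slide 2. Of the 56, 4 passed the test, all in D4+LIF, where 8.79% of the clones of slide 2 were called lower. They were Dppa5a at -1.75 (adjusted p = 0.0428), Dnmt3l at -1.54 (adjusted p = 0.0467), Fbxo15 BG072167 at -1.49 (adjusted p = 0.0443) and Tcea3 at -1.23 (adjusted p = 0.0445). With equal spread 31 of 56 differences were below 0, beside 51.2% of those of all clones. After quantile normalization 37 of 56 were, beside 61.9%, and with the Cy3 sign turned 25 of 56, beside 39.0%. The distance between the members and all clones therefore depended on the scaling.

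**Figure D4:**
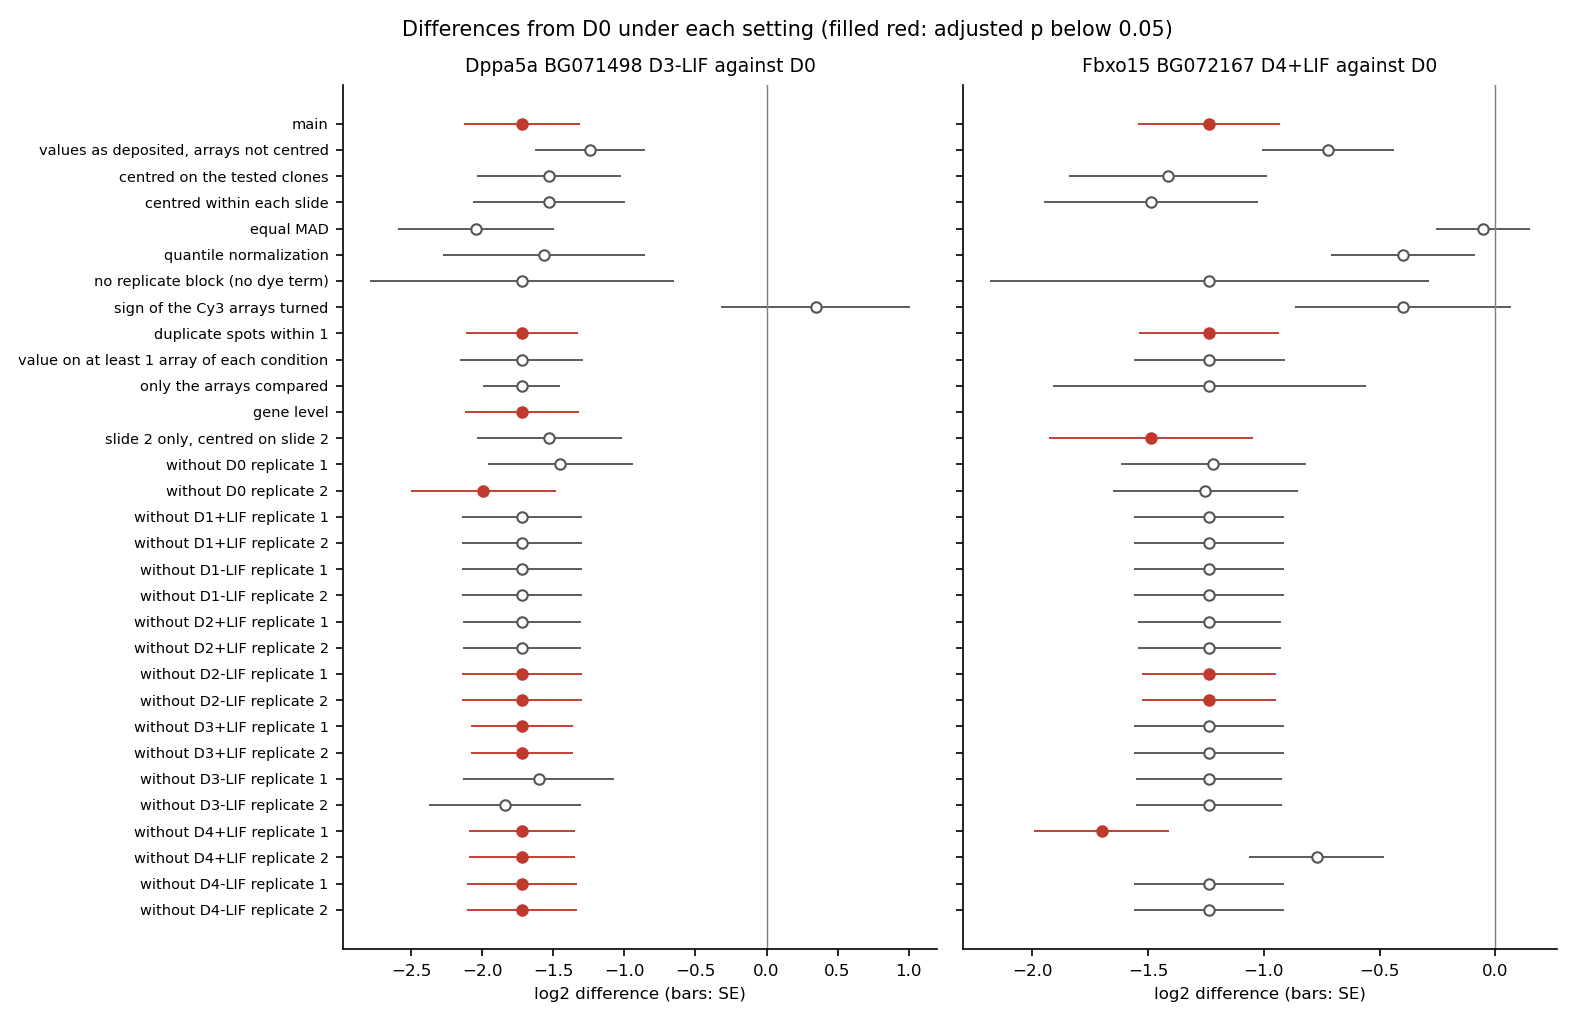
Difference from D0 in log2 (x axis, bars of 1 SE) of Dppa5a in D3-LIF (left) and of Fbxo15 BG072167 in D4+LIF (right) under each setting (y axis), where replicate 1 is the array with the sample in Cy3 and replicate 2 that in Cy5, and red filled points have an adjusted p below 0.05. The Dppa5a difference was -1.72 as reported and 0.35 with the Cy3 sign turned, and the Fbxo15 difference was -1.24 as reported and -0.05 at equal spread.

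Trends were fitted as a log2 change a day over D0 to D4. Without LIF all 7 member clones sloped down, from -0.31 for Dppa5a (SE 0.09, adjusted p = 0.651) to -0.08 for Morc1 BG071765, and 0% of all clones passed, with 452 at an unadjusted p under 0.05. With LIF the slopes ran from -0.31 for Dnmt3l (SE 0.10, adjusted p = 0.137) to 0.01 for Morc1 BG071765, with the smallest adjusted p, 0.0970, for Fbxo15 BG072167 at -0.24. None of the 7 passed, where 3.49% of all clones were called lower. Without the D4+LIF array in Cy3, 5 of these slopes with LIF passed, namely those of Dppa5a (-0.37, adjusted p = 0.0156), Dppa3 (-0.25, adjusted p = 0.0112), Dnmt3l (-0.42, adjusted p = 0.0125), Fbxo15 BG072167 (-0.33, adjusted p = 0.00363) and Tcea3 (-0.26, adjusted p = 0.00456). In that fit 10.4% of all clones were called lower and 33.7% higher.

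For LIF, the mean of Days 1 to 4 without LIF minus with LIF ran from -0.15 for Dppa5a to 0.17 for Dnmt3l (SE 0.22, adjusted p = 0.654), and 0 of 7 passed. In all 0% of clones passed, and 637 had an unadjusted p under 0.05. The 6 clones other than Dppa5a were above 0, while 76.3% of all clones were below 0, with a median of -0.18. That median depended on the centring and was -0.029 centred on tested clones and 0.011 centred within slides. The F test over the 9 conditions called 0.0343% of all clones (3 clones), and among the members its adjusted p ran from 0.471 for Dppa5a to 0.783 for Fbxo15 BG070142.

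The pattern of Dppa5a was set against that of 4678 other genes by Spearman's rho over the 9 conditions, taken within each dye and ranked by the lower of the 2. The points of a dye share the pool and the D0 array. The 5 most like it were Ctbp2, a transcriptional corepressor (0.98 in Cy3 and 0.90 in Cy5), Cacybp, a calcyclin-binding protein (0.87 and 0.95), Slc6a6, the taurine transporter (0.87 and 0.95), Atp1b3, a beta subunit of the sodium pump (0.87 and 0.92), and Psmd4, a ubiquitin receptor of the proteasome (0.87 and 0.87). The other members ranked lower, with Fbxo15 at rank 152 (0.78 and 0.62), Tcea3 at 360 (0.87 and 0.50), Dnmt3l at 778 (0.43 and 0.30), Dppa3 at 811 (0.92 and 0.27) and Morc1 at 1670 (0.65 and -0.02).

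The list of 32 ES cell core genes was chosen with earlier results of these data known. Its counts are therefore no independent result about the identity of D0. At gene level over 4679 genes, 9 of the 32 were measured. Of their 72 differences from D0, 6 were called lower and 0 higher, where 1.8% of the differences of all genes were called lower, and 65 were below 0, where 65.2% of those of all genes were, with medians between -0.90 and -0.57 across the 8 conditions, against medians between -0.24 and 0.19 for all genes. At gene level the share of all genes called lower was 5.64% in D1-LIF, 3.36% in D4+LIF, 2.74% in D3-LIF, 2.63% in D3+LIF, 0.0214% in D2-LIF and 0% in the other 3. Pou5f1, which encodes Oct4, fell by 2.33 in D1-LIF (adjusted p = 0.0217). Nanog was at -1.84 in D1-LIF (adjusted p = 0.0223) and at -1.72 in D3+LIF (adjusted p = 0.0391). Phc1, a Polycomb subunit, was at -1.16 in D1-LIF (adjusted p = 0.0398), at -1.46 in D3+LIF (adjusted p = 0.0243) and at -1.26 in D4+LIF (adjusted p = 0.0362). At clone level no clone was called in any comparison at equal spread, after quantile normalization or without the dye term. In bulk EBs, fewer cells that express a gene and less RNA in each cannot be told apart.

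Of 43 listed germ cell genes 25 were measured, 5 of the members included (Tcea3 was not on the list), and 4 of 200 differences from D0 were called lower and 0 higher, near the 1.8% of all genes. Below 0 were 59% of them, beside the 65.2% of all genes, with medians between -0.18 and 0.36. Besides Dppa5a, the called gene was Mkrn1, which encodes the RING-finger ligase makorin 1, at -1.76 (adjusted p = 0.0138) in D1-LIF, at -1.55 (adjusted p = 0.0263) in D3+LIF and at -1.93 (adjusted p = 0.0127) in D4+LIF. Mkrn1 and the other genes were listed with earlier results of these data known. The count of calls on this list is therefore no independent result about germ cell genes. Among 10 measured genes of the DNA methylation machinery, Dnmt3l among them, 0 of 80 differences passed, and the medians ran from -0.43 to -0.18. Of the KH domain oocyte and embryo family, 3 genes were measured (Dppa5a, Khdc1a and Ooep), and Dppa5a in D3-LIF was the 1 call among 24 differences, all of which were below 0, where 2.74% of all genes were called lower in D3-LIF.

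Of the SCF ubiquitin ligase list 18 genes were measured, and 6 of 144 differences were called lower, beside 1.8% of those of all genes. Of these calls 3 were in D1-LIF, the comparison with the highest share of all genes called, 5.64%. Fbxl5, the iron-sensing F-box protein, was called at -3.16 (adjusted p = 0.0212) in D1-LIF, at -3.10 (adjusted p = 0.0288) in D3-LIF and at -2.93 (adjusted p = 0.0375) in D3+LIF. Cks2, which binds cyclin-dependent kinases, was at -1.62 in D1-LIF (adjusted p = 0.0407) and -1.81 in D4+LIF (adjusted p = 0.0336), and Rbx1, the RING subunit, at -1.72 in D1-LIF (adjusted p = 0.0398). For the 2 measured MORC ATPases (Morc1 and Morc3) 0 of 16 differences passed, and for 23 genes of TFIIS and RNA polymerase II elongation 1 of 184 did, a share below the 1.8% of all genes, that of Polr2f, an RNA polymerase subunit, at -0.98 in D1-LIF (adjusted p = 0.0475).

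Markers of other cells that EBs can hold were measured for 7 extraembryonic endoderm genes (1 of 56 differences called, Sparc at -2.24 in D1-LIF, adjusted p = 0.0197), 2 primitive ectoderm genes, 3 trophoblast keratins and 6 fibroblast genes, with 0 calls among the last 3 groups. Their medians against D0 ran from -0.37 to 0.15, from -0.55 to 0.37, from 0.09 to 0.56 and from -0.14 to 0.30. None of the listed mesendoderm or neurectoderm markers was measured among the tested clones. The part of other cells in the members' values was not tested.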

How the data were processed

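The series holds 18 two-colour arrays of the NIA 15K mouse cDNA set (34560 spots on 2 slides), 2 arrays for each of 9 conditions, of IMT11 ES cells and EBs. The authors scanned the slides, quantified spots with ImaGene and normalised each channel by its mean intensity, and they deposited 1 linear ratio for each spot and array. Channel intensities were not analysed here, so background could not be judged, and the number of arrays limits the precision.

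Ratios were taken to log2. Subgrids of 360 spots hold clones whose copy lies 160 spots on, and 3840 edge spots, none of them with a gene, were left out, giving 15360 clones. The 10140 annotated pairs all carried the same accession. A single ratio of 0 was treated as missing. The 2 spots of each clone were averaged, and the median over all clones was subtracted from each array. Limma 3.58.1 (R 4.3.3) was run on clones measured on all arrays. Its model held a mean for each of the 9 conditions and a dye term, which is also the replicate block, since replicate 1 was the array with the sample in Cy3 in each condition and replicate 2 that in Cy5. P-values were adjusted by Benjamini-Hochberg over all 8740 clones, or 4679 genes at gene level, at a threshold of 0.05. The fit was tested on data simulated with independent noise, for D4-LIF against D0. It recovered 25.8% of the changes of 1 on the log2 scale, 79.1% of those of 2 and 94.0% of those of 3. Differences that did not pass are therefore not shown to be absent. Clones were named by the probe annotation, where 274 clones had several symbols and 5220 none and were not named.

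All member clones were named. From each gene list, at most 4 members past the threshold were named by smallest p, and for Dppa5a the 5 genes of highest rank correlation. Member genes, lists and tests were chosen with earlier results of these data known. The alternatives were no centring, centring on tested clones or within slides, equal median absolute deviation, quantile normalization, no dye term, the Cy3 sign turned, clones whose spots lay within 1 on every array (7093 clones), clones with a value for every condition on 1 array or more, fits of the compared arrays alone, gene level and leaving out each array in turn. Slide 2 alone was added after seeing the data.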

Additional observations from a re-analysis of the deposited data

How the results depend on the processing

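The calls of the 7 member clones were not stable, and the causes were not tested. Of the 56 differences from D0, 2 passed as reported, 4 with slide 2 alone and 0 with values not centred, centred on tested clones or within slides, at equal spread, after quantile normalization, without the dye term, with the Cy3 sign turned, with clones valued on 1 array or more of every condition and with only the arrays compared. Below D0 were 31 of 56 at equal spread, 37 after quantile normalization and 25 with the Cy3 sign turned. The filter on duplicate spots left out Dnmt3l. Of the 48 differences that remained, 46 were below D0, beside 62.4% of those of all clones. Both reported calls were kept in that limma fit, Dppa5a in D3-LIF (adjusted p = 0.0252) and Fbxo15 BG072167 in D4+LIF (adjusted p = 0.0314). Leaving out 1 array gave 0 to 7 calls and 51 to 56 values below D0.

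The dye is the replicate number, so the fit without it is the unpaired one, and without this replicate block every comparison had 0 calls. No clone was called either at equal spread, after quantile normalization or with the Cy3 sign turned. The counts of clones called in D1-LIF, D3-LIF, D3+LIF, D4+LIF and the trend with LIF were 494, 322, 289, 383 and 308 as reported. They were 60, 30, 24, 3620 and 2503 without centring (of the last 2, 3253 and 2187 were higher, against 5 and 3 as reported). Centred on tested clones, D1-LIF gave 30, D3-LIF 0, D3+LIF 4 and D4+LIF 726, of which 320 were higher. Centred within slides, D1-LIF gave 53, D3-LIF and D3+LIF 0, D4+LIF 536, of which 239 were higher, and the trend 137. With clones valued on 1 array or more of every condition they were 149, 96, 70, 131 and 108, at gene level 264, 128, 123, 159 and 123, and with slide 2 alone 49, 8, 39, 1312 and 659, of the last 2 of which 637 and 253 were higher. With only the arrays compared D2+LIF gave 136, D4+LIF 49 and the other comparisons 0. With duplicate spots within 1, D1+LIF gave 87, D2+LIF 42 and the F test 89. D1+LIF and D2-LIF (1 clone each as reported) and the F test (3 clones) gave 0 in most other settings, with 1 for the F test at gene level.

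Leaving out 1 array gave 31 to 777 clones in D1-LIF, 0 to 184 in D2-LIF, 0 to 590 in D3-LIF, 0 to 205 in D4-LIF, 0 to 256 in D1+LIF, 0 to 311 in D2+LIF, 1 to 679 in D3+LIF, 0 to 4053 in D4+LIF, 0 to 181 in the trend without LIF, 0 to 3851 in the trend with LIF, 0 to 2211 for LIF and 0 to 673 by the F test.

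Of the 56 differences from D0, the sign turned from below to above D0 for 29 with the Cy3 sign turned, 23 at equal spread, 17 after quantile normalization, 15 without centring, 3 each centred within slides and with slide 2 alone (Fbxo15 BG070142, at Day 1 without LIF and at Day 3 in both media), and 2 centred on tested clones, and none of these passed the test. Without centring 39 of the 56 and 22.7% of the differences of all clones were below D0. Turned values of Dppa5a and Fbxo15 BG072167, and turned slopes of all 7 clones, were as follows. With the Cy3 sign turned, Dppa5a against D0 was 0.07, 0.38, 0.35 and 0.65 in D1-LIF to D4-LIF and 0.10, 0.020 and 0.76 in D1+LIF to D3+LIF, its slopes were 0.16 without LIF and 0.035 with LIF, and its LIF difference was 0.18. Fbxo15 BG072167 was then 0.13, 0.35, 0.18 and 0.093 in D1-LIF to D4-LIF and 0.015 in D3+LIF, and the slopes without LIF were 0.11 for Dnmt3l, 0.023 for Fbxo15 BG072167, 0.068 for Morc1 BG071765 and 0.021 for Tcea3. At equal spread Dppa5a was 0.079 in D2-LIF, 0.045 in D1+LIF and 0.19 in D2+LIF, and Fbxo15 BG072167 0.014, 0.23 and 0.27. After quantile normalization Dppa5a was 0.27 in D2-LIF, and Fbxo15 BG072167 0.013 in D2-LIF and 0.036 in D1+LIF. The slope with LIF of Fbxo15 BG070142 was 0.048 without centring, and that of Morc1 BG071765 was -0.029 centred on tested clones and -0.045 centred within slides or with slide 2 alone. Leaving out 1 array moved the last slope between -0.013 (without the D0 array in Cy5) and 0.039, and Fbxo15 BG072167 in D2-LIF between -0.74 and 0.0043 (without the D2-LIF array in Cy3). The LIF difference of Dppa5a was 0.030 centred within slides or with slide 2 alone. None of the turned values passed the test.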
